A study of Homo sapiens with 12 samples.

Results

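NPPC, NPR2, NPR3, APLN and ADAMTS1 encode a secreted peptide with its receptors, a second secreted peptide and a secreted protease. These 5 of the 60675 genes in the files were chosen by what they did in LNCaP:C42 cells (C4-2 below), where single inhibitors and their combination moved them differently. Their C4-2 values are therefore given as a description without a test, and tests of the 5 genes are limited to the libraries labelled LNCaP, which the choice did not use. Polyadenylated RNA was sequenced from C4-2, a castration-resistant human prostate cancer line derived from LNCaP. It was also sequenced from cells labelled LNCaP, the androgen-dependent parent line of C4-2. Each of the 6 groups held 2 libraries, described as biological replicates of treated cultures. All cells, controls included, received the synthetic androgen R1881 at 1 nM in medium with charcoal-stripped serum, and treatments lasted 72 h. C4-2 cells had R1881 alone, R1881 with the KDM1A inhibitor namoline (50 µM; KDM1A removes methyl groups from histones), R1881 with TCE-5002, which targets the demethylase KDM7A, or R1881 with both inhibitors (combination). The authors describe TCE-5002 as selective for KDM7A, with the demethylases KDM7B (PHF8) and KDM2A as further targets. LNCaP cells had R1881 alone or R1881 with the combination. TCE-5002 is given as 100 µM in the series text but at a lower concentration in the methods, so its dose is uncertain.

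C-type natriuretic peptide (CNP), the product of NPPC, acts on nearby cells through the guanylate cyclase receptor NPR2, which makes the second messenger cGMP. NPR3 binds the same peptide without a cyclase domain and is known mainly for clearing natriuretic peptides. Apelin, the product of APLN, signals through the G protein-coupled receptor APLNR and is known for its part in blood vessel growth. ADAMTS1 is a secreted metalloprotease with thrombospondin repeats that cuts proteoglycans such as versican and aggrecan. All are studied in tumours for what they do outside the cell that makes them, which RNA levels in a culture do not measure.

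Some library facts preceded the results. Library totals ran from 14791602 to 20690819 counts. The header of the file for LNCaP combination replicate 1 names an alignment with namoline and without TCE-5002, while its labels say combination. LNCaP fold changes of the 5 genes and of most other named genes are therefore also given without that library. Those of PRKG2, ADAMTS6 and ADAMTS17 are given only with it, as are the apelin list and neighbour counts and the shares over all genes. The 4 libraries labelled LNCaP also stood apart from C4-2 in identity markers. VIM, an intermediate filament of mesenchymal cells, was at 694 ± 59.3 CPM in LNCaP with R1881 and 2.43 ± 0.269 CPM in C4-2 with R1881 (SD, n = 2; CPM, counts scaled to a common library size with TMM factors). EPCAM, an epithelial surface protein, was at 3.80 ± 0.391 against 137 ± 1.46 CPM. Not all markers followed this division. The luminal marker KLK3 was higher in LNCaP with R1881, at 380 ± 33.4 against 215 ± 13.4 CPM in C4-2. The mesenchymal marker COL1A1 was lower there, at 4.50 ± 0.672 against 49.7 ± 0.409 CPM. All 11 prostate luminal markers were at 1 CPM or more in every group, with summed levels of 2467 to 6069 CPM in C4-2 and 421 to 1007 CPM in the libraries labelled LNCaP. Summed mesenchymal markers were 64.1 to 102 CPM in C4-2 and 750 to 912 CPM in LNCaP, and LUM and DCN were at 0 counts in LNCaP with R1881. VIM made up most of the LNCaP sum. Endothelial markers summed to at most 9.54 CPM and leukocyte markers to at most 4.21 CPM in any library, with CDH5 at 0 counts in all C4-2 groups.

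The genes lie on separate chromosomes (GRCh38, positions as in the files). NPPC (ENSG00000163273) spans chr2:231921820-231926403 on the minus strand, APLN (ENSG00000171388) chrX:129645259-129654937 on the minus strand and ADAMTS1 (ENSG00000154734) chr21:26835747-26845409 on the minus strand. NPR2 (ENSG00000159899) spans chr9:35792154-35809732 and NPR3 (ENSG00000113389) chr5:32689070-32791724, both on the plus strand. No other annotated gene overlaps NPPC, APLN or ADAMTS1. Exons of NPR2 overlap those of SPAG8 on the opposite strand, and since counting used no strand option, reads of the pair cannot be told apart.

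Sequence just upstream of the start was examined for the peptide genes NPPC and APLN, because they were both higher under the single inhibitors in C4-2 but in opposite order. RefSeq promoter windows of 300 bases (GRCh38.p14, 250 before and 50 after the start) were matched for 4 of the 5 genes (NPPC, APLN, NPR2 and NPR3, the last with 2 windows). The parts upstream of the genes are printed 5′ to 3′ on the minus strand with GC boxes in capitals, NPPC from chr2:231926404-231926646 and APLN from chrX:129654957-129655206.
NPPC: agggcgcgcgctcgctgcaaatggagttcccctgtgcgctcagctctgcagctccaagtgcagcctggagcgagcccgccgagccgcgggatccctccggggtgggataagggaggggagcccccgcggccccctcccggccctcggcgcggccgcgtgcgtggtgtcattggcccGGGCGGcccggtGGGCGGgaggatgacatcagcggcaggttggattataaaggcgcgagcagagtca
APLN: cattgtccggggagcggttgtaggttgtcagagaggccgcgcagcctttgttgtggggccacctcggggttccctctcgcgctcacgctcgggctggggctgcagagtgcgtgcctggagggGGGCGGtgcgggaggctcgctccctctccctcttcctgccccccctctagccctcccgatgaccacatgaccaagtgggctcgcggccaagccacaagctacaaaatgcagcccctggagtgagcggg

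Both stretches are rich in G and C (71.6% of 243 bases in NPPC and 67.6% of 250 in APLN). The GC box GGGCGG was found 2 times in NPPC, 1 time in APLN, 4 times in NPR2 and in neither NPR3 window, searching both strands. It is a common motif, held by 45.0% of the 35116 windows. None of the member windows held TGACGTCA (CRE, in 1.85% of windows), TGANTCA (AP-1, 7.71%), ACGTG (hypoxia response core, 21.4%), TGATGCAA (C/EBP-ATF composite, 0.866%) or CACGTG (E-box, 7.26%, which contains ACGTG).

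**Figure D1:**
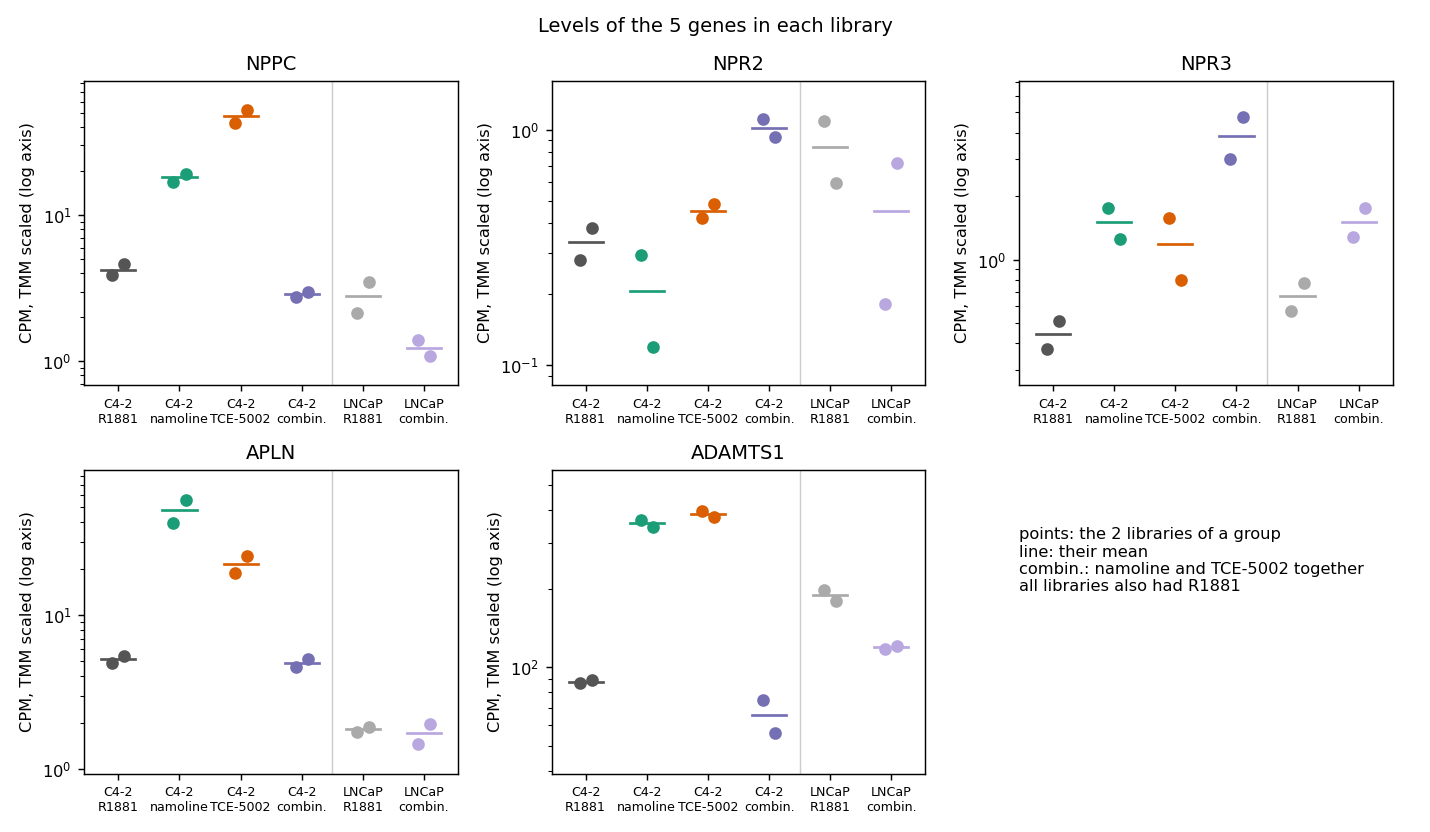
CPM of the 5 genes (TMM scaled, log axis) in each library, by group, with a line at the mean of the 2 libraries. NPPC, APLN and ADAMTS1 stood highest under the single inhibitors in C4-2, while NPR3 and NPR2 stood highest in the C4-2 combination.

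NPPC, the CNP precursor gene, was measured in C4-2 at 3.88 and 4.61 CPM with R1881 alone. It was at 16.99 and 19.23 CPM with namoline, and at 43.0 and 52.5 CPM with TCE-5002. With both inhibitors it was at 2.77 and 2.98 CPM. Both single-agent groups thus lay above the R1881 libraries without overlap, TCE-5002 above namoline, and the combination below R1881. The mean with TCE-5002 was 2.64 times that with namoline and 16.6 times that with the combination. On the log2 scale the differences from R1881 were 2.08 (SE 0.18) for namoline, 3.48 (SE 0.18) for TCE-5002 and -0.57 (SE 0.21) for the combination. The 2 single-agent values add up to 5.56. The combination fell short of that sum by 6.13 (SE 0.26), which is the interaction of the inhibitors on the log2 scale. Among all 17702 genes tested in C4-2, 5.17% were called higher and 6.88% lower with namoline, 5.04% and 6.80% with TCE-5002, 8.87% and 12.8% with the combination, and 16.7% and 18.6% in the interaction. A gene was called at an adjusted p under 0.05 with a change of at least 1 on the log2 scale (edgeR's quasi-likelihood test). No call is read for the 5 genes in C4-2, since these contrasts chose them. In bulk RNA, fewer cells that express a gene and less RNA per cell cannot be told apart.

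APLN, the apelin precursor gene, had the opposite order of the single agents. It was at 4.91 and 5.44 CPM with R1881 alone, 39.8 and 56.2 CPM with namoline, and 18.8 and 24.1 CPM with TCE-5002. With the combination it was at 4.595 and 5.149 CPM, overlapping the R1881 libraries. The mean with namoline was 2.24 times that with TCE-5002 and 9.86 times that with the combination. The log2 differences from R1881 were 3.19 (SE 0.20) for namoline, 2.04 (SE 0.20) for TCE-5002 and -0.10 (SE 0.22) for the combination. Against a sum of 5.23 for the single agents, the interaction was -5.33 (SE 0.28).

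ADAMTS1 was the most abundant of the 5 genes in every group, also per length. Its C4-2 levels were 86.7 and 89.2 CPM with R1881, 366 and 345 CPM with namoline, and 398 and 377 CPM with TCE-5002. The combination gave 74.9 and 56.0 CPM, below both R1881 libraries. Unlike the peptide genes, ADAMTS1 had nearly equal levels under the single agents, with a TCE-5002 mean 1.09 times the namoline mean. The log2 differences from R1881 were 2.00 (SE 0.14), 2.12 (SE 0.14) and -0.44 (SE 0.14) for namoline, TCE-5002 and the combination, and the interaction was -4.55 (SE 0.20).

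The receptors were near the detection limit and followed another pattern. NPR3, the clearance receptor, had 8 and 8 counts with R1881 (0.374 and 0.512 CPM). It had 30 and 21 counts with namoline (1.76 and 1.26 CPM), and 30 and 15 counts with TCE-5002 (1.58 and 0.803 CPM). The combination had 54 and 77 counts (2.99 and 4.78 CPM). The single-agent groups overlapped each other and lay above R1881, and the combination lay above both. The log2 difference from R1881 was 1.76 (SE 0.48) for namoline, 1.42 (SE 0.49) for TCE-5002 and 3.12 (SE 0.43) for the combination. The single-agent values add up to 3.18, and the interaction was -0.06 (SE 0.54). On the log2 scale NPR3 was thus near the sum of its single-agent values, where the 3 secreted factors were far below theirs.

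NPR2, the signalling receptor, had 2 to 9 counts in the 6 C4-2 libraries without the combination, and 20 and 15 counts (1.11 and 0.931 CPM) in the combination. It passed the filter on low counts only through the combination group. The R1881 libraries were at 0.281 and 0.384 CPM, namoline at 0.294 and 0.120 CPM and TCE-5002 at 0.420 and 0.482 CPM. Only the combination stood well apart, with a log2 difference of 1.62 (SE 0.53) from R1881. SPAG8, the gene on its other strand, had 10 to 35 counts across the libraries.

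**Figure D2:**
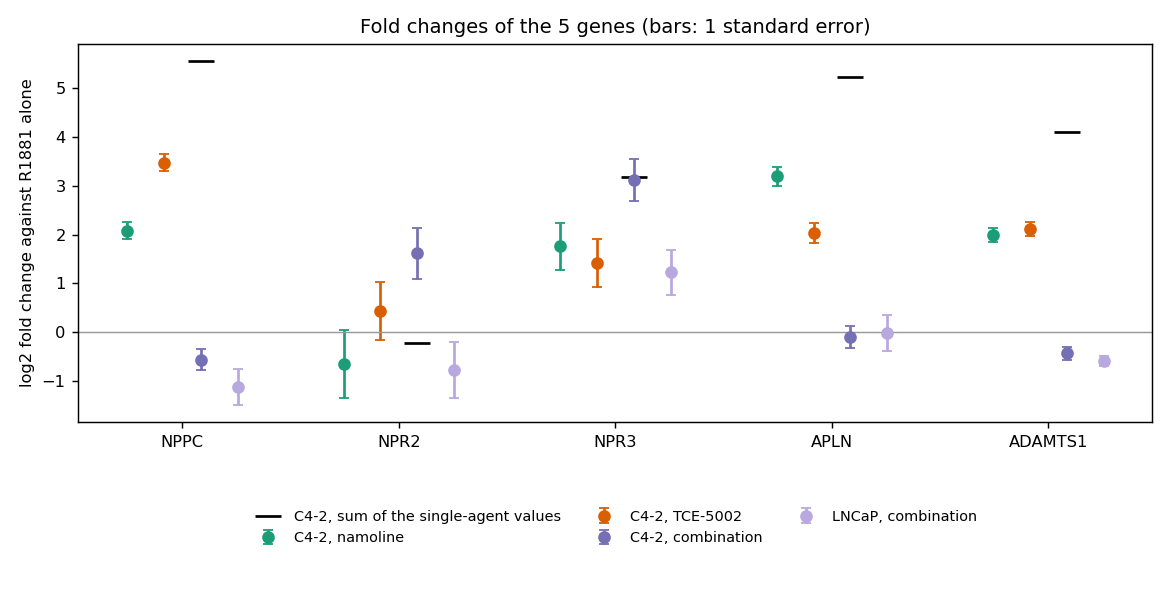
Log2 fold change of each gene against R1881 alone in the same cells, with bars of 1 standard error, and the sum of the C4-2 single-agent values as a black dash. For NPPC, APLN and ADAMTS1 the combination lay at or below 0 while the sum lay at 4.11 to 5.56, and for NPR3 the combination (3.12) lay near the sum (3.18).

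Per kilobase of exon, the ligand gene exceeded its receptors in every group. NPPC was at 3.96 ± 0.477 CPM per kb in C4-2 with R1881, 16.9 ± 1.48 with namoline, 44.6 ± 6.29 with TCE-5002 and 2.68 ± 0.138 with the combination (SD, n = 2). NPR3 was at 0.0449 ± 0.00986, 0.153 ± 0.0362, 0.121 ± 0.0554 and 0.394 ± 0.128 CPM per kb in the same groups. The ratio of NPPC to NPR3 was therefore 88.3 with R1881, 110 with namoline and 370 with TCE-5002, but 6.82 with the combination. NPR3 was lower than NPR2 per length in C4-2 with R1881 (ratio 0.522) and higher in the combination (ratio 1.49), with few counts behind both. APLN was at 1.61 ± 0.116, 15.0 ± 3.61, 6.69 ± 1.17 and 1.52 ± 0.122 CPM per kb. ADAMTS1 was at 12.45 ± 0.256, 50.4 ± 2.13, 54.8 ± 2.05 and 9.27 ± 1.89 CPM per kb. In the order of mean levels per length in C4-2 with TCE-5002, ADAMTS1 came first, then NPPC, APLN, NPR3 and NPR2, and of these neighbours NPR3 and NPR2 overlapped. With namoline the libraries of NPPC and APLN overlapped per length (15.9 and 17.96 against 12.4 and 17.5 CPM per kb).

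The sum of the prostate luminal markers moved alongside these levels. It was 3896 and 3992 CPM in C4-2 with R1881, 4444 to 4781 CPM with namoline, 5864 to 6069 CPM with TCE-5002 and 2467 to 2511 CPM with the combination. Of the 11 markers, 7 had means above R1881 with both single agents and below it with the combination, and 4 did not. KLK3, which encodes prostate-specific antigen, was at 215 ± 13.4 CPM with R1881, 191 ± 36.0 with namoline, 447 ± 52.5 with TCE-5002 and 47.5 ± 7.44 with the combination (SD, n = 2). The keratin genes KRT8 and KRT18 were highest in the combination, at 556 ± 17.6 and 355 ± 14.5 CPM, against 374 ± 30.1 and 320 ± 1.69 CPM with R1881. CDH1, the epithelial cadherin, was at 969 ± 30.2 CPM with R1881 and at 613 to 629 CPM, as group means, in the other C4-2 groups. The part of these markers in the levels of the secreted factors was not tested.

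In the libraries labelled LNCaP, the combination was tested against R1881 alone over 17565 genes, of which 7.44% were called higher and 11.3% lower. All 5 genes passed the filter. NPPC was called lower and NPR3 higher, and the other 3 were not called. NPPC was at 2.13 and 3.47 CPM with R1881 and at 1.40 and 1.08 CPM with the combination, without overlap but with only 21 to 76 counts a library. Its log2 fold change was -1.12 (SE 0.36, adjusted p = 0.0091, edgeR). It was -1.32 (adjusted p = 0.0065) without LNCaP combination replicate 1, the library whose header differs. The call was lost without LNCaP R1881 replicate 2 (-0.72, adjusted p = 0.241), without LNCaP combination replicate 2 (-0.94, adjusted p = 0.059), with a correction for GC content (-0.85, adjusted p = 0.0457) and in DESeq2 (-1.12, adjusted p = 0.0515).

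NPR3 had 12 and 17 counts with R1881 (0.568 and 0.777 CPM) and 21 and 34 counts with the combination (1.27 and 1.75 CPM). The combination libraries lay above the controls, with a log2 fold change of 1.23 (SE 0.46, adjusted p = 0.0235, edgeR), and 1.42 (adjusted p = 0.0299) without combination replicate 1. This call was lost without LNCaP R1881 replicate 1 (1.01, adjusted p = 0.175), R1881 replicate 2 (1.47, adjusted p = 0.0581) or combination replicate 2 (0.98, adjusted p = 0.209). It was also lost in DESeq2 (1.23, adjusted p = 0.1) and with a GC correction (1.03, adjusted p = 0.0543). In the C4-2 combination NPPC and NPR3 were at -0.57 and 3.12 on the same scale.

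ADAMTS1, with 1938 to 4178 counts a library, gave the most precise value. It was at 198 and 179 CPM with R1881 and at 118 and 120 CPM with the combination, which did not overlap. The log2 fold change was -0.60 (SE 0.10, adjusted p = 7.4e-06, edgeR), a fall of 1.52-fold that passed the test of the change but was under the size set for a call, and -0.60 (adjusted p = 7e-07) without combination replicate 1. APLN was at 1.75 and 1.87 CPM with R1881 and at 1.46 and 1.96 CPM with the combination, so its libraries overlapped. Its log2 fold change was -0.02 (SE 0.36, adjusted p = 0.971), and 0.16 without combination replicate 1. NPR2 was at 1.09 and 0.594 CPM with R1881 and at 0.182 and 0.723 CPM with the combination. The lowest of these is combination replicate 1 with 3 counts, and the log2 fold change of -0.78 (SE 0.58, adjusted p = 0.264) became -0.17 (adjusted p = 0.857) without it.

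Which line had the higher level with R1881 alone differed between the genes. ADAMTS1 was at 188 ± 13.3 CPM in LNCaP and 88.0 ± 1.81 CPM in C4-2, and APLN at 1.81 ± 0.0862 against 5.18 ± 0.372 CPM (SD, n = 2). NPPC was at 2.80 ± 0.950 against 4.24 ± 0.511 CPM. NPR2, at 0.842 ± 0.350 against 0.332 ± 0.0729 CPM, was higher in LNCaP at few counts. So was NPR3, at 0.673 ± 0.148 against 0.443 ± 0.0972 CPM. None of these libraries overlapped between the lines. They are described without a test, since the C4-2 libraries took part in the choice of genes, and single inhibitors were not given to LNCaP cells in these libraries.

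The genes around CNP were taken as a list of 37 further genes for natriuretic peptides, processing enzymes, guanylate cyclases, cGMP kinases, phosphodiesterases and transporters, of which 21 were tested in C4-2 and 27 in LNCaP. With namoline 2 were called higher and 3 lower, with TCE-5002 3 higher and 2 lower, and with the combination 0 higher and 5 lower (3 higher and 10 lower at an unadjusted p under 0.05 in edgeR, 0 and 4 called by DESeq2). Without C4-2 namoline replicate 2 only 3 were called with namoline. In the interaction 4 were called higher and 10 lower. The median log2 fold change of the list was 0.36, -0.05 and -0.40 in these comparisons, against -0.0043, -0.00014 and -0.034 over all genes tested. In LNCaP 0 were called higher and 5 lower (7 and 9 at an unadjusted p under 0.05, 0 and 5 by DESeq2), with a median of -0.02 against -0.0049, and 6 were called without combination replicate 1. Over all genes tested, 5.17% were called higher and 6.88% lower with namoline, 5.04% and 6.80% with TCE-5002, and 8.87% and 12.8% with the combination. In the interaction 16.7% and 18.6% were called, and in LNCaP 7.44% and 11.3%. The 3 C4-2 comparisons share their R1881 libraries. The other natriuretic peptide genes were barely counted, NPPA with 0 to 7 and NPPB with 0 to 2 counts in any library, and so was the receptor NPR1 with 0 to 10 (these were picked out after their values were seen).

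Genes of peptide breakdown and of cGMP turnover were examined under each single agent. MME, which encodes neprilysin, a protease that degrades natriuretic peptides, was at 275 ± 8.5 CPM in C4-2 with R1881. It rose with namoline (log2 fold change 1.08, adjusted p = 2.9e-05, edgeR) and with TCE-5002 (1.29, adjusted p = 8.75e-06), and was at 193 and 154 CPM with the combination, where it was not called. PDE9A, a cGMP-specific phosphodiesterase, rose with TCE-5002 (1.51, adjusted p = 2.24e-06) from 18.2 and 20.2 CPM to 53.1 and 57.5 CPM. With namoline PDE9A was at 34.4 and 38.9 CPM (0.91, adjusted p = 0.000142), a rise under the size set for a call. The interactions of MME (-3.05) and PDE9A (-3.08) passed the test, so for these genes too the combination was below the sum of the single agents.

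PDE10A and PDE2A, phosphodiesterases that act on both cyclic nucleotides, were lower with namoline. PDE10A fell with namoline from 9.87 and 8.70 to 1.41 and 0.599 CPM (log2 fold change -3.22, adjusted p = 1.51e-06, edgeR) and with TCE-5002 (-1.15, adjusted p = 0.00144). PDE2A fell with namoline from 5.38 and 4.93 to 1.29 and 0.839 CPM (-2.29, adjusted p = 3.09e-05). Both had positive interactions (3.95 and 3.27) that passed the test. Other phosphodiesterases of this kind did not share that course (picked out after their values were seen). PDE3B was at 15.4 ± 1.26 CPM with R1881 and 25.6 ± 0.0114 CPM with namoline (SD, n = 2; log2 fold change 0.71, adjusted p = 0.00194, edgeR), with an interaction of -1.33 that was called. PDE1A, below 1 CPM as a mean in each C4-2 group, was not called in any of the C4-2 comparisons.

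With the combination in C4-2, the exporters of cyclic nucleotides ABCC4 and ABCC5 fell by 1.33 and 1.25 on the log2 scale (adjusted p = 8e-07 and 1.56e-06, edgeR). ABCC4 went from 742 and 679 CPM with R1881 to 297 and 275 CPM. GUCY1A1, a subunit of the soluble guanylate cyclase, went from 120 and 119 to 53.2 and 48.7 CPM (-1.24, adjusted p = 9.29e-07). GUCY1B1, another subunit of it picked out after its values were seen, did not share this fall. Its means were 24.1 CPM with R1881 and 25.05 CPM with the combination (0.04, adjusted p = 0.818, edgeR). PRKG2, a cGMP-dependent kinase known downstream of CNP in growth cartilage, was called lower in all 4 comparisons with R1881, by 2.05 to 3.04 on the log2 scale, at 4 to 62 counts a C4-2 library. PRKG2 was outside the naming rule for its low level and was picked out after its values were seen.

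In the LNCaP comparison FGFR3, a growth factor receptor whose signalling CNP restrains in cartilage, fell from 79.4 and 56.8 to 19.7 and 20.3 CPM (log2 fold change -1.71, adjusted p = 2.91e-12, edgeR; -1.70 without combination replicate 1). FURIN, a protease that matures CNP and ADAMTS proteins, fell from 99.7 and 91.6 to 38.8 and 30.4 CPM (-1.41, adjusted p = 1.26e-11; -1.61 without that library). With a GC correction FURIN was at -0.98, just short of a call. In C4-2 FURIN was not called in the 3 comparisons with R1881. It was at -0.51 with namoline (adjusted p = 0.0215, edgeR) and -0.60 with TCE-5002 (adjusted p = 0.00878), under the size for a call. Its interaction of 1.05 (adjusted p = 0.00119) was called. FGFR3, at 15 to 103 counts a C4-2 library, was called higher with namoline (1.47, adjusted p = 0.00709, edgeR) and TCE-5002 (1.55, adjusted p = 0.00455). It was not called with the combination (-0.40, adjusted p = 0.477), and its interaction of -3.41 was called.

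**Figure D3:**
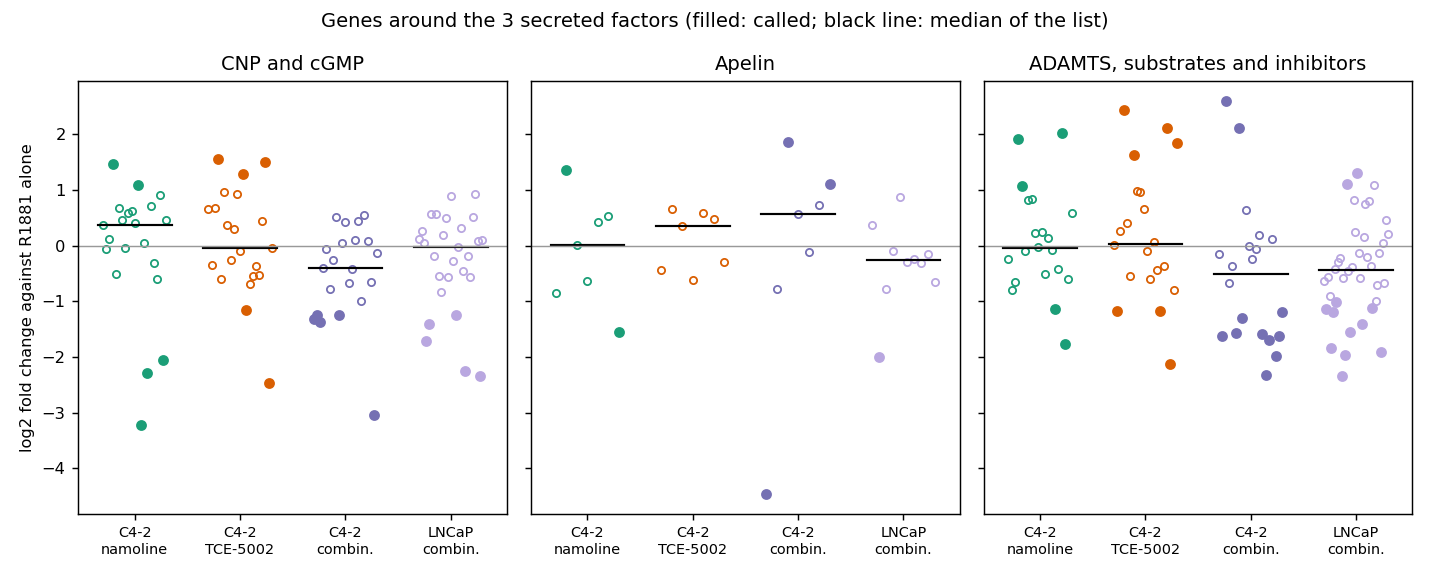
Log2 fold changes against R1881 alone of the tested genes in the CNP, apelin and ADAMTS lists, filled where called, with the list median as a black line. Calls in the ADAMTS list were mostly falls under the combination, 9 of 11 in C4-2 and 10 of 12 in LNCaP, where over all genes falls were 2263 of 3834 and 1987 of 3293 calls.

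For apelin the list held 15 further genes, and 7 were tested in C4-2. The apelin receptor gene APLNR and APELA, which encodes the other known ligand of that receptor, had 0 counts in each of the 12 libraries, which allows up to 0.145 to 0.203 CPM (3 counts of a library's total, counting error only). Both were picked out after their values were seen. With namoline 1 gene was called higher and 1 lower, with TCE-5002 0 and 0, and with the combination 2 higher and 1 lower, with list medians of 0.02, 0.36 and 0.57. The medians over all genes tested were -0.0043, -0.00014 and -0.034. Over all genes, 5.17% were called higher and 6.88% lower with namoline, 5.04% and 6.80% with TCE-5002, and 8.87% and 12.8% with the combination. In LNCaP 10 were tested and 1 was called lower (median -0.27), against 7.44% higher and 11.3% lower over all genes (median -0.0049). With so few genes tested, these counts are not read as a result about the list. With TCE-5002, 4 of the list were higher and 1 lower at an unadjusted p under 0.05 in edgeR, and DESeq2 called 0 as well. The combination calls numbered 5 without any one of the namoline and TCE-5002 libraries, without the filter and with all 12 libraries in 1 fit, and the LNCaP calls 3 with a GC correction. In the interaction 3 were called higher and 3 lower, where 16.7% and 18.6% of all genes were.

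ARRB1, an arrestin that uncouples and internalises receptors of this class, rose with namoline from 27.3 and 27.2 to 64.5 and 77.5 CPM (log2 fold change 1.36, adjusted p = 1.94e-06, edgeR). ARRB2, its close relative, rose with the combination from 40.5 and 41.9 to 138 and 163 CPM (1.86, adjusted p = 3.73e-08). VEGFA, a vessel growth factor, fell with namoline from 443 and 466 to 143 and 174 CPM (-1.54, adjusted p = 2.12e-06) and rose with the combination to 888 and 1089 CPM (1.11, adjusted p = 1.97e-05). Without C4-2 combination replicate 2 the rise of VEGFA was 0.98, under the size for a call. VEGFA was thus lowest in C4-2 under namoline, where APLN was highest, and its interaction was 2.95. GNA13, a G protein subunit, was between 61.0 and 86.4 CPM with the single agents and at 157 and 176 CPM with the combination, and its interaction of 1.83 (adjusted p = 3.15e-06) was called. In LNCaP ADM, the vasoactive peptide adrenomedullin, fell from 7.29 and 5.81 to 1.46 and 1.65 CPM (-2.01, adjusted p = 2.45e-07; -1.94 without combination replicate 1).

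The ADAMTS list held 47 further genes for related proteases, their substrates, inhibitors and clearance receptor. Symbols matched for 46, and 20 were tested in C4-2 and 38 in LNCaP. With namoline 3 were called higher and 2 lower, with TCE-5002 4 and 3, and with the combination 2 and 9, and in the interaction 3 and 6. The 5 namoline calls became 3 in DESeq2, 3 without C4-2 R1881 replicate 1 or namoline replicate 2, and 2 without C4-2 R1881 replicate 2. The list medians were -0.05, 0.03 and -0.52, against -0.0043, -0.00014 and -0.034 over all genes tested. Of all genes, 5.17% were called higher and 6.88% lower with namoline, 5.04% and 6.80% with TCE-5002, and 8.87% and 12.8% with the combination. The shares in the interaction were 16.7% and 18.6%, and those in LNCaP 7.44% and 11.3% (median -0.0049). In LNCaP 2 were called higher and 10 lower, with a median of -0.43, and 10 were called in all without combination replicate 1.

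Substrates of ADAMTS1 did not move as a group. SEMA3C, a secreted semaphorin, rose with namoline from 9.68 and 8.76 to 44.9 and 31.6 CPM (log2 fold change 2.03, adjusted p = 5.37e-06, edgeR) and with TCE-5002 to 46.4 and 34.6 CPM (2.11, adjusted p = 5.1e-06). With the combination it was at 11.7 and 8.56 CPM, overlapping R1881. This course resembled that of ADAMTS1, and its interaction was -4.01. THBS1, an inhibitor of vessel growth, fell in all 3 C4-2 comparisons, from 15.5 and 15.9 CPM to 2.94 to 4.76 CPM (-1.77 with namoline, -2.12 with TCE-5002 and -1.98 with the combination, adjusted p of 1.46e-05 or less). SDC4, a cell surface proteoglycan, fell with the combination from 55.5 and 60.3 to 15.1 and 21.2 CPM (-1.69, adjusted p = 1.6e-06). VCAN, the versican gene, had a mean of at most 0.0897 CPM in any C4-2 group, and 38.0 CPM in LNCaP with R1881, and was picked out after its values were seen.

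Among inhibitors and receptors, TIMP2, a metalloprotease inhibitor, rose with TCE-5002 from 18.2 and 18.4 to 65.4 and 67.8 CPM (log2 fold change 1.84, adjusted p = 4.17e-07, edgeR). With the combination it fell to 7.86 and 8.38 CPM (-1.18, adjusted p = 1.33e-05), and its interaction was -3.62. LRP1, an endocytic receptor that clears ADAMTS proteases, fell with the combination from 85.0 and 87.8 to 28.96 and 29.22 CPM (-1.58, adjusted p = 1.66e-05). Its exons overlap those of STAT6 on the opposite strand, which has up to 894 counts, so its value may hold reads of both.

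Other proteases of the family took separate courses. ADAMTS7 rose with TCE-5002 (log2 fold change 1.63, adjusted p = 0.000892, edgeR) and with the combination (2.10, adjusted p = 4.98e-05), from 1.40 and 1.41 to 5.26 and 7.01 CPM in the latter. ADAMTS7 had 22 to 113 counts a C4-2 library, and its span overlaps that of MORF4L1 on the opposite strand, a gene with 4245 to 7460 counts a library, though the annotated exons of the pair do not overlap. ADAMTS3, a procollagen peptidase, rose with namoline from 5.05 and 3.902 to 9.70 and 9.47 CPM (1.06, adjusted p = 0.00238), but was at 0.91 without C4-2 R1881 replicate 2. In LNCaP ADAMTS3 fell from 18.6 and 17.1 to 3.03 and 3.72 CPM (-2.34, adjusted p = 5.44e-12). The proteoglycan-cutting relatives ADAMTS5, ADAMTS15 and ADAMTS8 also fell there, by 1.97, 1.84 and 1.56 on the log2 scale (adjusted p of 1.42e-06 or less). Without combination replicate 1 these 4 genes gave -2.22, -2.23, -2.42 and -1.95 in the same order. ADAMTS15, at 14 to 80 counts a C4-2 library, was called lower in C4-2 as well. Its log2 fold change there was -1.18 with TCE-5002 (adjusted p = 0.0135, edgeR) and -1.62 with the combination (adjusted p = 0.0017). With namoline it was not called (-0.80). ADAMTSL3, a related protein without protease activity, had an interaction of -3.11 in C4-2 (adjusted p = 1.52e-07).

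Genes next to the 5 on the chromosome were examined, 4 tested neighbours each (2 on either side). Of the 20 neighbours, 1 was called higher and 1 lower with namoline, 1 and 1 with TCE-5002, 0 and 2 with the combination, and 2 higher and 0 lower among 19 tested in LNCaP (edgeR; DESeq2 called 1 and 0, 1 and 0, 0 and 2, and 2 and 0). At an unadjusted p under 0.05 there were 3 higher with the combination and 2 lower in LNCaP, where none were called. In the interaction 2 were called higher and 3 lower. Over all genes tested, 5.17% were called higher and 6.88% lower with namoline, 5.04% and 6.80% with TCE-5002, and 8.87% and 12.8% with the combination. The interaction had 16.7% and 18.6%, and LNCaP 7.44% and 11.3%. With so few neighbours, their counts are not read as a result about them. DIS3L2, 34.8 kb from NPPC, had log2 fold changes of 0.02, 0.26 and -0.09 with namoline, TCE-5002 and the combination. OCRL, 52.7 kb from APLN, had 0.08, 0.10 and 0.17. The call that resembled a member was LINC00161, a non-coding RNA gene 1694 kb from ADAMTS1, which rose with namoline (2.12, adjusted p = 0.000253, edgeR) and TCE-5002 (2.29, adjusted p = 0.000129). With the combination it was at -0.22 (adjusted p = 0.687), and its interaction was -4.63. APP and GABPA on the other side of ADAMTS1 gave -0.12 and -0.44 with namoline and were not called. SMARCA1, a chromatin remodeller gene 122 kb from APLN, fell with TCE-5002 (-1.85, adjusted p = 0.0207), a call lost in DESeq2 (-1.85, adjusted p = 0.0508), without C4-2 R1881 replicate 1 (-1.37) and without TCE-5002 replicate 2 (-1.61). In LNCaP SMARCA1 rose (1.40, adjusted p = 2.68e-12; 1.47 without combination replicate 1). UTP14A, a ribosome assembly gene 251 kb from APLN, also rose there (1.08, adjusted p = 2.71e-10; 1.09 without that library), and was at 0.99 with a GC correction and 0.98 without LNCaP R1881 replicate 1. The pseudogene NRBF2P6, 417 kb from NPPC, fell with the combination in C4-2 (-2.66, adjusted p = 0.000453) and with namoline (-1.18, adjusted p = 0.0373), the latter a call lost in DESeq2 and without any one of the C4-2 R1881 and namoline libraries (-1.30 to -1.10). TARS1-DT, a non-coding gene 632 kb from NPR3, fell with the combination (-1.35, adjusted p = 0.00715), a call lost without C4-2 R1881 replicate 1 (-1.06) or combination replicate 2 (-0.94).

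**Figure D4:**
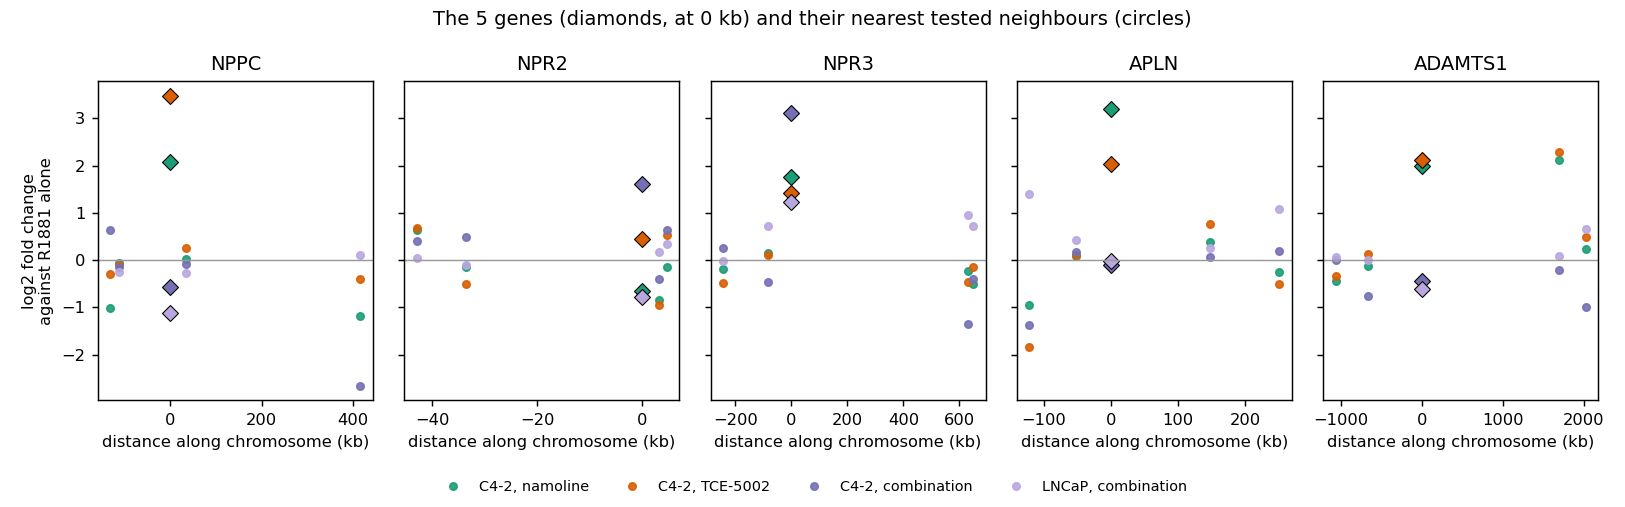
Log2 fold changes of the 5 genes (diamonds, at 0 kb) and of their nearest tested neighbours (circles) against distance along the chromosome in kb, by comparison. Circles stayed mostly within 1 of 0, and the LINC00161 circles at 1694 kb from ADAMTS1 lay at 2.12 and 2.29 for the single agents.

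Genes whose C4-2 pattern was most like that of the secreted factors were found by the root mean square difference in centred log2 CPM over the 8 C4-2 libraries, among 11655 genes. These libraries chose the members, so the likeness is a description. Nearest to NPPC were CKB (a creatine kinase; difference 0.418), MAB21L4 (0.433) and CA12 (a carbonic anhydrase; 0.511). CKB was at 446, 1163, 2388 and 244 CPM as means of R1881, namoline, TCE-5002 and the combination. Nearest to APLN were CDC45 (0.325), a replication factor, and the transcription factors E2F1 (0.375) and E2F2 (0.379). E2F1 was at 9.41, 57.3, 31.7 and 11.5 CPM in that order of groups. Nearest to ADAMTS1 were HMGN2P46 (0.182), a transcribed pseudogene, FAM81A (0.230) and SLC27A2 (0.231), a fatty acid transporter. SLC27A2 was at 11.7, 32.4, 37.6 and 6.81 CPM.

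The 3 secreted factors were compared with each other on the same measure. ADAMTS1 differed from NPPC by 0.609 and from APLN by 0.549, and NPPC differed from APLN by 0.937. Among the 11655 genes ranked, ADAMTS1 stood at place 14 around NPPC and at place 19 around APLN. NPPC stood at place 550 around APLN and at place 306 around ADAMTS1, and APLN at place 162 around NPPC and at place 188 around ADAMTS1.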

How the data were processed

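Polyadenylated RNA of 12 libraries was captured and sequenced in paired ends. The authors trimmed reads with TrimGalore and aligned them to GRCh38 with STAR, and per the file headers featureCounts gave the deposited counts of fragments per gene, unnormalised, with Ensembl annotation and no strand option. Groups came from the library titles, since a treatment field that describes siRNA did not match them. Here genes were kept with filterByExpr (8 C4-2 and 4 LNCaP libraries fitted apart), scaled by TMM and tested with edgeR 4.0.16 (limma 3.58.1, R 4.3.3; quasi-likelihood, two-sided, Benjamini-Hochberg over all genes tested). The interaction was the log2 fold change of the combination less those of both single agents. Symbols were found for 41209 of 60675 genes.

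The 5 genes and the lists were chosen with earlier results of these data known. Named genes were the 5 members, per list and comparison up to 4 called genes with the largest change and at least 5 CPM, 2 neighbours a side, and 3 genes of like pattern (pseudocount 0.1). Steps were tested on simulated data, with changes planted only in genes above a minimum mean level. NPR2 and NPR3, and APLN in LNCaP, lay under that level, so the simulation did not cover them. The methods call the replicates biological, with no further origin given, so p-values measure the spread between these libraries. Library totals of 14791602 to 20690819 limit precision for NPR2 and NPR3. Chi-square per gene between replicates was 3.61 to 27.9, so none were copies. The value of 27.9 was that of C4-2 with TCE-5002, whose replicates differed most, and the next highest was 9.76 in C4-2 with namoline. Alternatives were RLE scaling, no filter, a likelihood ratio test, DESeq2 1.42.0, a replicate block, GC correction, other sets of libraries and leaving out each library.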

Additional observations from a re-analysis of the deposited data

Results flagged for a closer look

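Among the 25 list genes named above, 7 that were tested in both lines had combination libraries that moved one way against R1881 in C4-2 and the opposite way in the libraries labelled LNCaP, with no overlap between treated and control libraries in either line. The share of all genes that meet this condition was not measured, and the 25 were named for calls in the comparisons above. The count of 7 is therefore a description and not a result about these lists. Higher in C4-2 and lower in LNCaP were VEGFA (log2 fold change 1.11 in C4-2 and -0.66 in LNCaP), GNA13 (0.57 and -0.29), PDE2A (0.44 and -0.46) and ADAMTS7 (2.10 and -0.45). Lower in C4-2 and higher in LNCaP were ABCC5 (-1.25 and 0.27), PDE9A (-0.66 and 0.93) and ADAMTSL3 (-1.29 and 0.82). The difference between the lines was not tested for these genes, none of the 7 was called in LNCaP, and PDE9A, GNA13 and PDE2A were not called in C4-2 either. Without LNCaP combination replicate 1 the LNCaP values kept their sign, and moved by more than 1.5 times for PDE2A (-0.71), ADAMTS7 (-0.71) and ADAMTSL3 (1.24). ADAMTSL3 had only 10 to 26 counts a LNCaP library. Its lowest combination library (0.607 CPM) lay barely above its highest R1881 library (0.594 CPM). PDE2A had 12 to 24 counts a LNCaP library. ADM met the same condition but was not tested in C4-2, where it had 2 and 4 counts with R1881. None of NPPC, NPR2, NPR3, APLN and ADAMTS1 met it.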

How the results depend on the processing

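The counts of genes called in the 5 comparisons stayed within 1.5 times of the reported counts in all 36 fits without a library and all 43 other alternatives run. NPPC in LNCaP (-1.12) was called under RLE scaling, without the filter, with the likelihood ratio test and with all 12 libraries in 1 fit, but not in DESeq2 (-1.12), with GC correction (-0.85) or with GC correction and a replicate block (-0.82), and ran from -1.45 to -0.72 without single libraries. NPR3 in LNCaP (1.23) was lost in DESeq2 (1.23) and with GC correction (1.03, and 1.03 with the block), and ran from 0.98 to 1.47. APLN in LNCaP changed sign, to 0.15 with GC correction and 0.14 with the block added, and ran from -0.25 to 0.16, within its standard error of 0.36. The cause of these changes was not tested. The C4-2 interaction of NPPC moved from -6.13 to -5.77 with GC correction (-5.76 with the block), and that of NPR2 ran from 1.34 to 2.61 without single libraries. Replicate numbers did not pair the libraries (correlations of deviations from -0.0943 to 0.102), and a replicate block changed LNCaP calls from 3293 to 3062 and C4-2 combination calls from 3834 to 3871, and it ended no member's call without the GC correction. Low counts of NPR2 and NPR3 limit their values.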

Other observations

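2 genes of the ADAMTS list were called in opposite directions by the combination in the lines, and were picked out after their values were seen. ADAMTS17 had a log2 fold change of 2.60 in C4-2 (adjusted p = 6.63e-05, edgeR) and -1.19 in LNCaP (adjusted p = 6.61e-06), at mean levels of 0.761 and 4.55 CPM in C4-2 and 10.6 and 4.47 CPM in LNCaP with R1881 and the combination. ADAMTS6 had -1.57 in C4-2 (adjusted p = 0.047) and 1.10 in LNCaP (adjusted p = 0.00676). The difference between the lines was not tested for either gene. MAB21L4, near NPPC in its C4-2 pattern, was at 9.55 CPM in C4-2 with R1881 and had 0 counts in the 4 LNCaP libraries, which allows up to 0.145 to 0.203 CPM.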
